A study of Mus musculus with 6 samples.

Results

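ADAMTS proteases are secreted enzymes that bind zinc and cut proteins of the extracellular matrix. Their RNA was compared here between cultures named as bone marrow mesenchymal stem cells, given all-trans retinoic acid (ATRA) or its solvent. The group holds 9 genes, Adamts1, Adamts2, Adamts4, Adamts5, Adamts7, Adamts9, Adamts10, Adamts12 and Adamts15, of 25722 genes listed in the count tables, and was taken by gene name. All 9 were among the 13842 genes that passed the filter on low counts and were tested. The members were chosen by this same contrast of ATRA against DMSO, around Adamts15, whose fold change and adjusted p were known to pass the threshold. Their values are therefore given as a description, and nothing about the treatment is tested on them.

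The family falls into groups by what its members cut. ADAMTS1, 4, 5, 9 and 15 cut aggrecan and versican, the large proteoglycans that bind hyaluronan. ADAMTS2 removes the amino-terminal propeptide of fibrillar procollagens. ADAMTS7 and ADAMTS12 bind and cut cartilage oligomeric matrix protein, and ADAMTS10 binds fibrillin-1, the main protein of microfibrils. Most are made as precursors that proprotein convertases such as furin cut, and TIMP3 is the best known tissue inhibitor of the family.

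The 6 libraries came from cultures given as bone marrow mesenchymal stem cells (BMSCs) of wild-type C57BL/6 mice. The medium was low-glucose DMEM with 20% serum and 10 µM ROCK inhibitor, at 5% oxygen. The libraries comprised 3 with DMSO and 3 with ATRA, which the labels give as 1 µM for 48 h. The methods of the study state a lower concentration and a shorter treatment, so dose and time are uncertain. The labels also speak of 2 biological replicates while 3 libraries per group were read, so the spread between libraries may be partly technical.

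The zinc-binding site was read from the coding sequence of each member to show how near they are to Adamts15. All 9 held the site, which spans 12 codons with 3 histidine codons that bind the metal (capitals below, 5′ to 3′, from GENCODE M21 transcripts on GRCm38). In every member it runs across the junction of 2 exons. In Adamts15 it lies in exons 2 and 3 of 8, within chr9:30911252-30911690 on the minus strand. The sites of Adamts15, of Adamts4 (nearest to it in sequence), of Adamts9, Adamts5 and Adamts2 (which the values below set apart) and of Adamts10 (the least like it) were these.
Adamts15: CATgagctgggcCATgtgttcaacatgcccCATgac
Adamts4: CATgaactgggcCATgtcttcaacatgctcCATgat
Adamts9: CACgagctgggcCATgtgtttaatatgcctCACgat
Adamts5: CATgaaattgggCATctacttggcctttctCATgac
Adamts2: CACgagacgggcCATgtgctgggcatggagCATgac
Adamts10: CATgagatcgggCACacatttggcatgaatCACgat
Of the 36 bases, Adamts4 shared 32 with Adamts15, and Adamts1 and Adamts9 shared 30 each. Adamts2 shared 26, Adamts7 and Adamts12 shared 23 each, Adamts5 shared 22 and Adamts10 shared 21. Adamts5, which cuts the same proteoglycans as Adamts15, thus shared fewer bases with it than Adamts2, Adamts7 and Adamts12 did. Only identity to Adamts15 was counted, so these numbers do not show which members group together.

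Library totals ran from 14737636 to 18511905 counts, so 3 counts in a library stood for 0.160 to 0.210 CPM (counts scaled to a common library size with TMM factors). The libraries did not group by treatment. Among the 1000 genes of highest variance, principal component 1 (57.2% of the variance) parted DMSO 2, ATRA 1 and ATRA 2 (library set 1) from DMSO 1, DMSO 3 and ATRA 3 (library set 2). Neither the labels nor the methods name a batch, and these are sets of samples seen in the data. The labelled cell type was checked against markers. The summed level of 14 macrophage markers was 20129 to 22650 CPM, against 1360 to 3245 CPM for 14 mesenchymal markers. The macrophage sum was the larger in every library, so the markers did not bear out a culture of mesenchymal cells alone. BMSC is kept below as the name given to the samples and not as a finding. Of the mesenchymal list 11 of 14 genes passed the filter on low counts, among them Eng (mean 44.2 CPM with DMSO and 46.2 with ATRA). Thy1 and Nt5e, which also define these cells, did not. Which cells made the ADAMTS RNA cannot be told from such bulk libraries, nor can fewer cells of a type be told apart from less RNA per cell. As a check of the treatment, Cyp26b1, which encodes an enzyme that breaks down retinoic acid, had 71, 112 and 68 counts with DMSO and 2225, 1729 and 1277 with ATRA, and all 7 of the retinoid response genes tested had a higher mean with ATRA.

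Adamts15 was near the limit of detection in the control libraries and well above it in all treated ones. It is encoded at chr9:30899155-30922452 on the minus strand (GRCm38), and no exon of another gene overlaps its exons. The DMSO libraries held 2, 4 and 5 counts, or 0.140, 0.213 and 0.344 CPM. The ATRA libraries held 150, 125 and 251 counts, or 8.34, 7.93 and 17.1 CPM. The lowest treated library thus lay far above the highest control, and only the first of the controls was under 3 counts. The means were 0.232 ± 0.103 CPM with DMSO and 11.1 ± 5.20 with ATRA (SD, n = 3 each). Summed over libraries and allowing for their sizes, 526 counts against 11 gave a ratio of 47.0 with a 95% Clopper-Pearson interval of 26.1 to 94.8, which covers counting error only.

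The fitted log2 fold change of Adamts15 was 5.54 (SE 0.50). It was the call by which the group was formed (edgeR quasi-likelihood test, adjusted p = 0.041 over all genes tested, at least 1.5-fold). Of all genes tested 0.0433% were called, and 1 of the 9 members was. DESeq2 called the same member and no other, where 0.983% of all genes were called. The call held without ATRA 3 and was lost without any of the other 5, with an adjusted p in edgeR of 0.267 without DMSO 1, 0.0950 without DMSO 2, 0.335 without DMSO 3, 0.167 without ATRA 1 and 0.227 without ATRA 2, while the log2 fold change stayed between 5.09 and 5.89. The highest value was in ATRA 3, the only treated library of set 2. The difference of mean log2 CPM was 4.61 in set 1 and 5.61 in set 2. These differences are on a scale with 2 counts added, which shrinks the change of a gene so low in the controls.

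**Figure D1:**
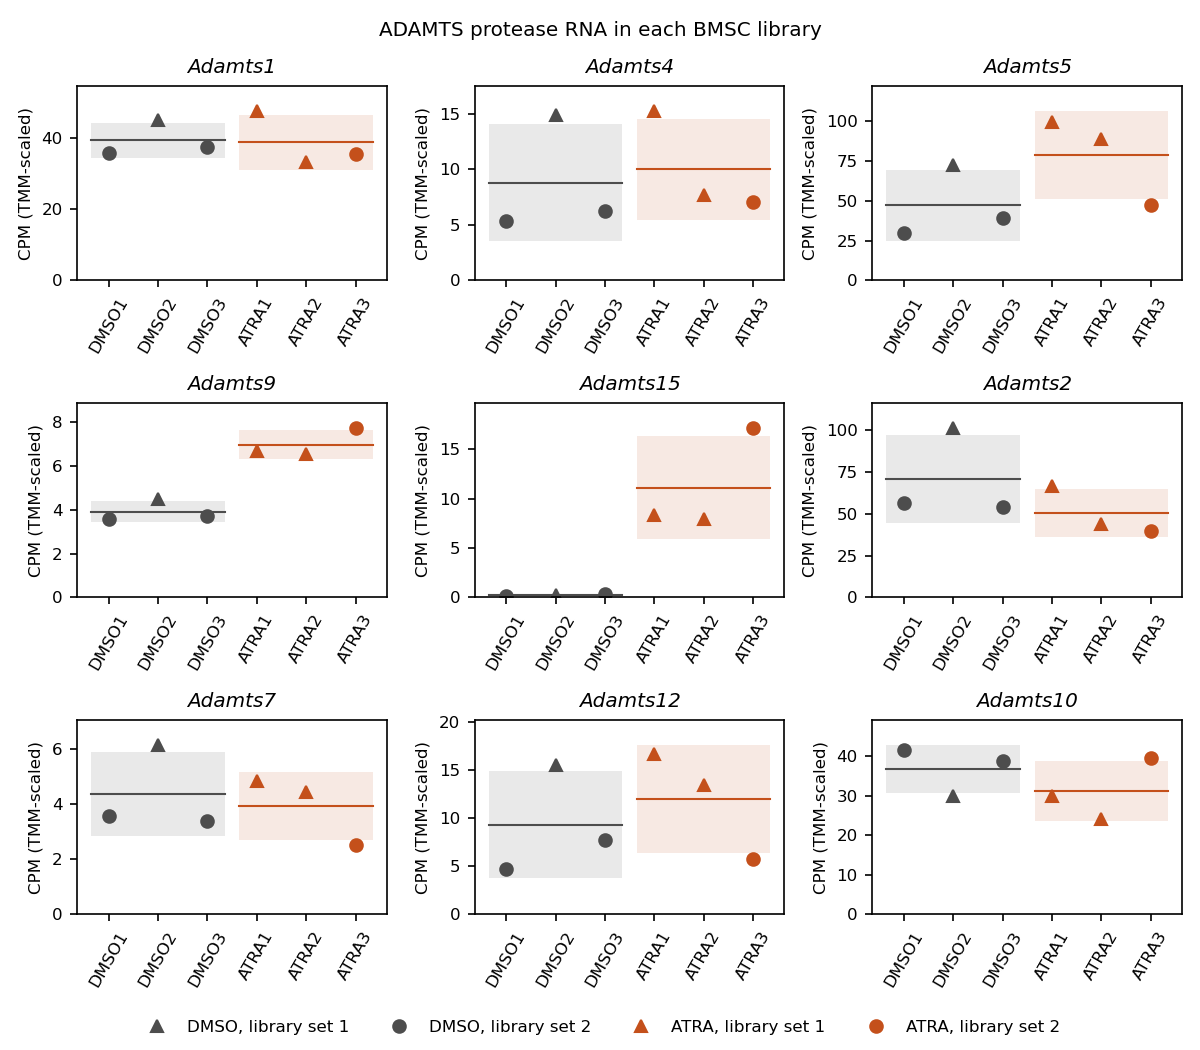
CPM (TMM-scaled, linear axes from 0) of each of the 9 ADAMTS proteases in the 6 BMSC libraries, grey for DMSO and orange for ATRA, triangles for library set 1 and circles for set 2, with lines at the group means and bands of ± 1 SD. Adamts15 and Adamts9 show no overlap between the groups, and for all members but Adamts10 and Adamts15 both controls of set 2 lie under the control of set 1.

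Among the other members that cut aggrecan and versican, Adamts9 was also higher in every treated library, by a far smaller fold. Adamts9 (chr6:92772699-92943492, minus strand) had 51, 84 and 54 counts with DMSO and 120, 103 and 113 with ATRA. In CPM these were 3.57, 4.47 and 3.71 against 6.67, 6.53 and 7.71, so the groups did not overlap and each was tight. The log2 fold change was 0.83 (SE 0.19), with 0.55 in set 1 and 1.06 in set 2. Adamts9 shares 1381 of its 15048 exon bases with A730049H05Rik on the opposite strand, which had 1, 8 and 2 counts with DMSO and 57, 61 and 15 with ATRA. Whether reads were counted by strand is not given in the sources used here, so reads of this pair cannot be told apart.

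Adamts5, the main aggrecanase of mouse cartilage, was higher on average with ATRA but not in every library. Adamts5 (chr16:85856173-85901828, minus strand) reached 29.9, 72.3 and 39.0 CPM with DMSO (427, 1360 and 567 counts) and 99.7, 88.6 and 47.6 CPM with ATRA (1793, 1398 and 697 counts). Its groups overlapped, since DMSO 2 lay above ATRA 3. Within each library set, however, treated libraries were above controls, and the difference in mean log2 CPM was 0.38 in set 1 and 0.48 in set 2 against a log2 fold change of 0.74 (SE 0.40) over all libraries.

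Adamts1 and Adamts4 did not part the groups in these libraries. Adamts1 (chr16:85793827-85803113, minus strand), which lies near Adamts5 on the same strand, had 512, 847 and 543 counts with DMSO and 854, 523 and 522 with ATRA. Its levels of 35.9, 45.0 and 37.3 CPM against 47.5, 33.2 and 35.6 CPM overlapped fully, with a log2 fold change of -0.02 (SE 0.18). Adamts4 (chr1:171250421-171260637, plus strand) stood at 5.32, 14.9 and 6.26 CPM with DMSO (76, 280 and 91 counts) and 15.2, 7.74 and 7.03 CPM with ATRA (274, 122 and 103 counts). It was highest in ATRA 1 and DMSO 2, and its log2 fold change was 0.18 (SE 0.48), with -0.45 in set 1 and 0.28 in set 2.

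Of the members with other substrates, Adamts2 and Adamts7 were lower in every treated library than in the controls of its own set. Adamts2 (chr11:50602084-50807573, plus strand), the procollagen N-proteinase, held 807, 1898 and 789 counts with DMSO and 1199, 696 and 586 with ATRA. The levels were 56.5, 101 and 54.3 CPM against 66.6, 44.1 and 39.98 CPM, and only ATRA 1 lay within the range of the controls. Its log2 fold change was -0.49 (SE 0.31), and the differences were -0.89 in set 1 and -0.47 in set 2.

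Adamts7 and Adamts12, the closely related pair that binds cartilage oligomeric matrix protein, were higher in library set 1 with either treatment. Adamts7 (chr9:90163069-90208071, plus strand) had 3.57, 6.12 and 3.37 CPM with DMSO (51, 115 and 49 counts) and 4.84, 4.44 and 2.52 CPM with ATRA (87, 70 and 37 counts), a log2 fold change of -0.15 (SE 0.35). Treated libraries were below the controls of their own set in both, by 0.39 in set 1 and by 0.44 in set 2 on the log2 scale. Adamts7 shares 122 exon bases with the opposite-strand gene Tbc1d2b, whose mean level was far higher at 320 CPM with DMSO and 250.5 CPM with ATRA, so reads in that stretch cannot be told apart either. Adamts12 (chr15:11064790-11349231, plus strand) had 4.69, 15.5 and 7.77 CPM with DMSO (67, 291 and 113 counts) and 16.6, 13.4 and 5.73 CPM with ATRA (299, 212 and 84 counts). Its log2 fold change of 0.35 (SE 0.53) came to -0.05 in set 1 and -0.07 in set 2.

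Adamts10 (chr17:33524204-33553782, plus strand), the member that binds fibrillin, overlapped between the groups. It had 592, 563 and 563 counts with DMSO and 539, 382 and 578 with ATRA, or 41.5, 29.9 and 38.7 CPM against 29.96, 24.2 and 39.4 CPM. The lowest value was in ATRA 2 and the highest in DMSO 1, with a log2 fold change of -0.23 (SE 0.22).

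Read as a group, the 9 genes did not move together. Their median log2 fold change was 0.18, with a range from -0.49 to 5.54, beside a median of -0.02 over all genes tested, and it came to 0.80 without DMSO 2 and to -0.17 without ATRA 1. Every ATRA library was above every DMSO library for 2 members, Adamts9 and Adamts15, and this held for 5.71% of all genes. No member lay below all DMSO libraries, as 6.87% of all genes did. Within their own library set, treated libraries were above all controls for 3 members (Adamts5, Adamts9 and Adamts15) in both sets, against 18.5% of all genes, and below for 2 (Adamts2 and Adamts7), against 23.5%. With the library set as a term in the edgeR model, Adamts15 was again the only member called, with a log2 fold change of 5.78, where 0.744% of all genes were called as higher and 0.795% as lower.

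**Figure D2:**
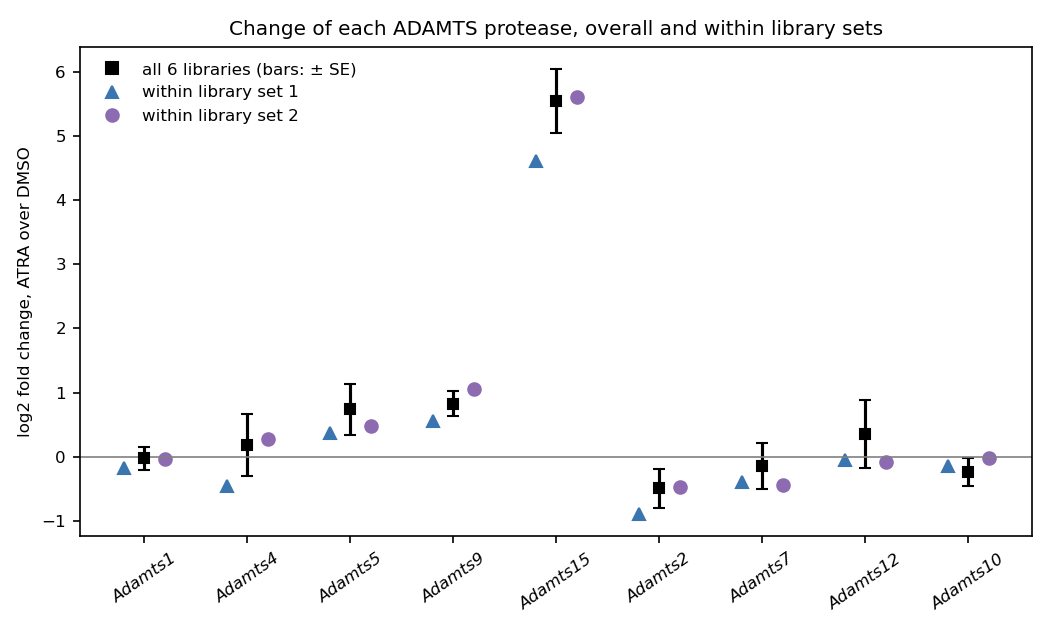
Log2 fold change (ATRA over DMSO) of the 9 ADAMTS proteases over all 6 libraries (black squares, bars ± SE) and as the difference of mean log2 CPM within library set 1 (blue triangles) and set 2 (purple circles). Adamts15 stands at 4.61 to 5.61, Adamts9 and Adamts5 are also above 0 in both sets, Adamts1, Adamts2, Adamts7, Adamts10 and Adamts12 are below 0 in both, some of them narrowly, and the points of Adamts4 fall on both sides of 0.

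In an edgeR fit with both treatment and library set, the log2 coefficient of set 1 over set 2 was above 0 for 7 of the 9 members, against 50% of all genes, with a median of 0.67. For 7 of the 9 its size was larger than that of the log2 fold change between treatments over all libraries. The coefficient was 1.35 for Adamts12, 1.05 for Adamts4, 1.03 for Adamts5, 0.84 for Adamts7, 0.67 for Adamts2, 0.24 for Adamts1 and 0.02 for Adamts9. It was below 0 for Adamts10 and Adamts15, at -0.48 and -0.98. In the controls alone, where Adamts15 had only 11 counts in all, its difference in mean log2 CPM between the sets was -0.06, and in the treated libraries it was -1.06. The summed mesenchymal markers also differed by set. Of 11 tested, 9 had a set coefficient above 0. Their sum stood at 3245 CPM in DMSO 2 against 1727 and 1930 CPM in the other controls, and at 2689 and 1801 CPM in ATRA 1 and ATRA 2 against 1360 CPM in ATRA 3. Chondrocyte markers, of which Col2a1 gave the most counts, summed to 127, 304 and 135 CPM with DMSO and to 112, 62.3 and 43.4 CPM with ATRA. The summed endothelial markers differed by set in the other direction. Their sums were 8.35, 11.2 and 13.2 CPM in DMSO 2, ATRA 1 and ATRA 2, and 21.5, 20.2 and 22.4 CPM in DMSO 1, DMSO 3 and ATRA 3. Not every marker of this list went that way. Of 4 tested, 1 had a set coefficient above 0, Cdh5 at 0.38. Emcn, untested and with at most 15 counts in a library, was also higher in set 1. The macrophage list had a median set coefficient of -0.41, with 5 of 14 above 0. Neutrophil and lymphocyte markers summed to 1.65 to 2.80 CPM. The part of these markers in the ADAMTS values was not tested.

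Per kilobase of exon, the scale on which genes can be set against each other, the control cultures held mostly Adamts2 and Adamts1. With DMSO the mean levels were 7.56 CPM per kb for Adamts2, 7.43 for Adamts1, 4.45 for Adamts10, 4.36 for Adamts5 and 1.83 for Adamts4. Lower still were Adamts12 at 0.853, Adamts7 at 0.693, Adamts9 at 0.260 and Adamts15 at 0.0224 CPM per kb. Neighbours in this order overlapped in their ranges of mean ± SD, except Adamts1 and Adamts10, Adamts7 and Adamts9, and Adamts9 and Adamts15. Adamts2 led the means through DMSO 2, while in DMSO 1 and DMSO 3 Adamts1 was higher. Within each control library Adamts5 was above Adamts4 and Adamts4 above Adamts12, although their ranges over the libraries overlapped.

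With ATRA the order was Adamts1 at 7.31, Adamts5 at 7.29, Adamts2 at 5.38, Adamts10 at 3.78 and Adamts4 at 2.08 CPM per kb. Adamts12 at 1.09, Adamts15 at 1.07, Adamts7 at 0.626 and Adamts9 at 0.463 CPM per kb followed, and every pair of neighbours overlapped in mean ± SD. Adamts15 made up 0.0816% of the summed per-kilobase level of the 9 genes with DMSO and 3.69% with ATRA. In each treated library it was above Adamts7 and below Adamts1 and Adamts5. It was below Adamts12 and Adamts4 in ATRA 1 and ATRA 2 and above both in ATRA 3.

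**Figure D3:**
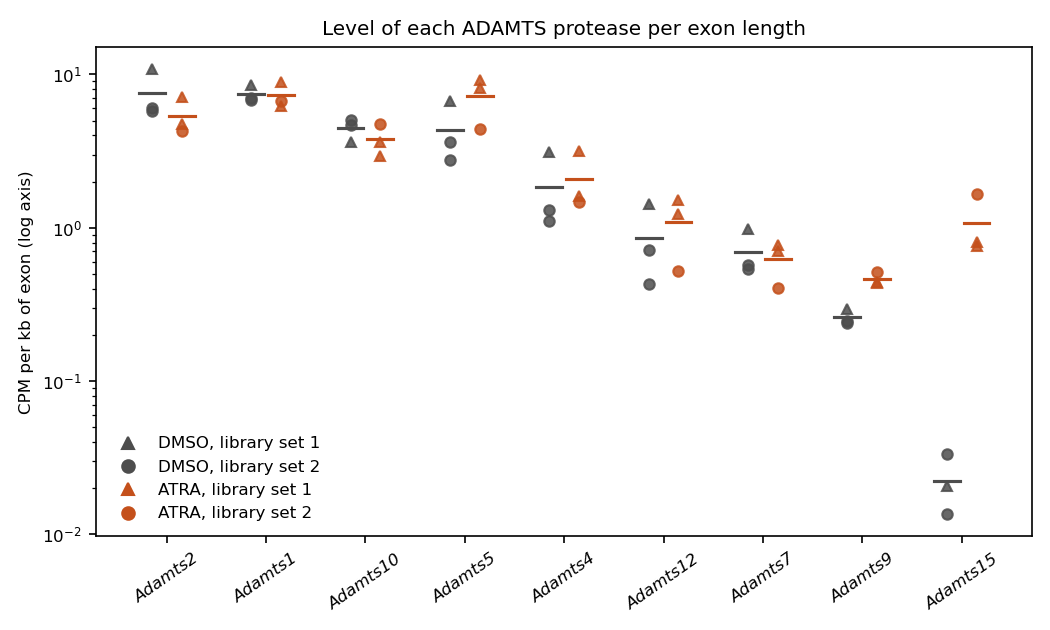
Level of each ADAMTS protease in CPM per kb of exon (log axis) in each library, grey for DMSO and orange for ATRA, triangles for library set 1 and circles for set 2, with lines at the group means. Adamts15 goes from the lowest place with DMSO (mean 0.0224) to a mean of 1.07 with ATRA, while Adamts2 and Adamts1 lead the controls.

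The genes most like Adamts15 across the 6 libraries, by the Pearson correlation of log2 CPM, were Fbln7 (0.996), Cyb5b (0.993), Flrt2 (0.993), Slc25a51 (0.988) and 2010016I18Rik (0.985). These are descriptions over 6 libraries that share the same 2 treatments, and 151 genes had a correlation over 0.9. A correlation ignores size. Fbln7, which encodes a fibulin of the matrix, went from 0.337 to 4.16 CPM, whereas Cyb5b went from 224 to 239 CPM. None of the 5 was called in edgeR.

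Promoter sequence was read for Adamts1, Adamts2, Adamts9 and Adamts12, 4 of the 9 members, from RefSeq (GRCm38.p6), and not for Adamts4, Adamts5, Adamts7, Adamts10 and Adamts15. Retinoic acid receptors bind as dimers to repeated hexamers. The hexamer AGGTCA was therefore looked for with its variant GGGTCA and also with AGTTCA and with its own variant GGTTCA, on both strands of the 300 bases from 250 before to 50 after the start. The 250 bases before the start are shown for Adamts9, the higher with ATRA in every library, and for Adamts2, the lower in both sets, with matches in capitals. They lie at chr6:92943535-92943784 on the minus strand and at chr11:50601835-50602084 on the plus strand.
Adamts9: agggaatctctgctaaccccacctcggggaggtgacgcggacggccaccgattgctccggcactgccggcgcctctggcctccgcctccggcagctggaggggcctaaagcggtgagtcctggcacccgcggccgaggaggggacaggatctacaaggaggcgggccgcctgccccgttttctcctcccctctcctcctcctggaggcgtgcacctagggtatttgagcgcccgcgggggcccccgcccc
Adamts2: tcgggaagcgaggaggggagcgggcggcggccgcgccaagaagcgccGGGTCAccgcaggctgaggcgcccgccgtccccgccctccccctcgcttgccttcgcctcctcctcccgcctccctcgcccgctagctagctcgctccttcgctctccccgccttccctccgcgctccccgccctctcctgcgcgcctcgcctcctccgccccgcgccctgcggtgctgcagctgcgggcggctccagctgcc
Adamts2 had GGGTCA 203 bases before the start, and Adamts12 had GGGTCA on the opposite strand in the last 6 bases before its start. Adamts1 and Adamts9 had none of the hexamers in the window. At least 1 of the 4 hexamers was in 43.7% of 32851 promoters of the same length, and AGGTCA alone in 16.3%. None of the 4 members had a direct repeat of these hexamers with a spacer of 1, 2 or 5 bases, which 0.222%, 0.268% and 0.0974% of all promoters held. The GC content of these 250 bases was 65.6% for Adamts1, 78.0% for Adamts2, 71.2% for Adamts9 and 63.2% for Adamts12, against a median of 52.4% over all promoters.

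Of 10 ADAMTS proteases outside the group, 6 were listed and 2 tested, Adamts6 and Adamts14, and neither was called in edgeR, with 1 at an unadjusted p under 0.05, as were 5.25% of all genes tested. Adamts14, which like ADAMTS2 processes procollagens, had 26, 109 and 36 counts with DMSO and 197, 117 and 83 with ATRA, and a log2 fold change of 1.24 (SE 0.48, adjusted p = 0.80 in edgeR). Adamts6, a close relative of Adamts10, had a log2 fold change of 0.10 (SE 0.51). Adamts3, Adamts13, Adamts17 and Adamts20 had at most 10 counts in any library.

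The ADAMTS-like genes encode matrix proteins built like the proteases but without the catalytic domain, and none of the 4 tested was called in edgeR, with 3 at an unadjusted p under 0.05 (5.25% of all genes). Adamtsl1 went from 25, 96 and 39 counts to 477, 297 and 205, or from 3.18 ± 1.73 to 19.8 ± 6.32 CPM (SD, n = 3). Its treated libraries all lay above the controls, with a log2 fold change of 2.62 (SE 0.44, edgeR adjusted p = 0.23). Adamtsl3 went the other way, from 126, 239 and 133 counts to 55, 40 and 25, or from 10.2 ± 2.16 to 2.43 ± 0.682 CPM (SD, n = 3). All its treated libraries were below the controls, with a log2 fold change of -2.06 (SE 0.29, edgeR adjusted p = 0.17). Adamtsl4, the most abundant per length, had a log2 fold change of -0.48 (SE 0.30).

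Among the substrates, versican was the hyaluronan-binding proteoglycan with enough counts to be tested. Vcan had 887, 2963 and 1208 counts with DMSO and 1038, 889 and 486 with ATRA, or 101 ± 50.2 against 49.1 ± 13.8 CPM (SD, n = 3). Its treated libraries were all below the controls, with a log2 fold change of -1.04 (SE 0.38, edgeR adjusted p = 0.80) and differences of -1.46 and -1.11 in sets 1 and 2. Acan, which encodes aggrecan, had 1 count in DMSO 3 and none elsewhere, which the limit of 3 counts leaves below 0.210 CPM in each library. None of the 5 tested genes of this list was called in edgeR, with 1 at an unadjusted p under 0.05 (5.25% of all genes). Among them were the hyaluronan receptor gene Cd44 at -0.12 (SE 0.12) and the hyaluronan synthase gene Has2 at 0.13 (SE 0.53) on the log2 scale. Like Vcan, Cd44 was below the controls in all treated libraries, as were 6.87% of all genes.

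Of the procollagens and their processing enzymes, 9 of 10 tested genes had a log2 fold change below 0, as had 52.7% of all genes. None was called in edgeR, with 2 at an unadjusted p under 0.05 (5.25% of all genes). The list median was -0.49, beside -0.02 over all genes. The log2 fold changes were -1.45 (SE 0.50) for Col2a1, -1.13 (SE 0.43) for Col5a1 and -0.58 (SE 0.47) for Col1a1, the most abundant. All treated libraries were lower than the controls of their own set for 9 of the 10, as for 23.5% of all genes and for Adamts2 and Adamts7 among the proteases. The median set coefficient of this list was 0.96, beside 0.67 for the proteases.

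No gene was called in edgeR among the 12 tested other matrix substrates or the 10 tested genes of activation, inhibition and clearance, with 1 in each at an unadjusted p under 0.05 (5.25% of all genes). Their median log2 fold changes were -0.30 and -0.31. In the first list Ccbe1, a lymphatic growth factor cofactor, stood at 1.38 (SE 0.57), Comp at -0.85 (SE 0.44) and the abundant Thbs1 at -0.45 (SE 0.36). In the second the inhibitor gene Timp2 stood at -0.44 (SE 0.13) and the convertase gene Pcsk6 at -0.66 (SE 0.30). Timp3 had a log2 fold change of -0.33 (SE 0.32) and Furin of -0.32 (SE 0.17), both named for their role and not by their values. All treated libraries were below the controls for 3 of the 10, Timp2, Pcsk6 and Furin, as for 6.87% of all genes.

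With the library set as a term, edgeR called 8 of the 43 tested genes of these lists, where the fit without it called none. Adamtsl1 rose, as 0.744% of all genes did in that fit, and Adamtsl3, Vcan, Col2a1, Col5a1, Fbn1, Thbs1 and Timp3 fell, as 0.795% did. DESeq2 called 2 of the 43, Adamtsl1 as higher and Adamtsl3 as lower, beside 0.983% of all genes in either direction. The set was drawn from these same counts, so these calls are an alternative reading and not independent of the data.

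**Figure D4:**
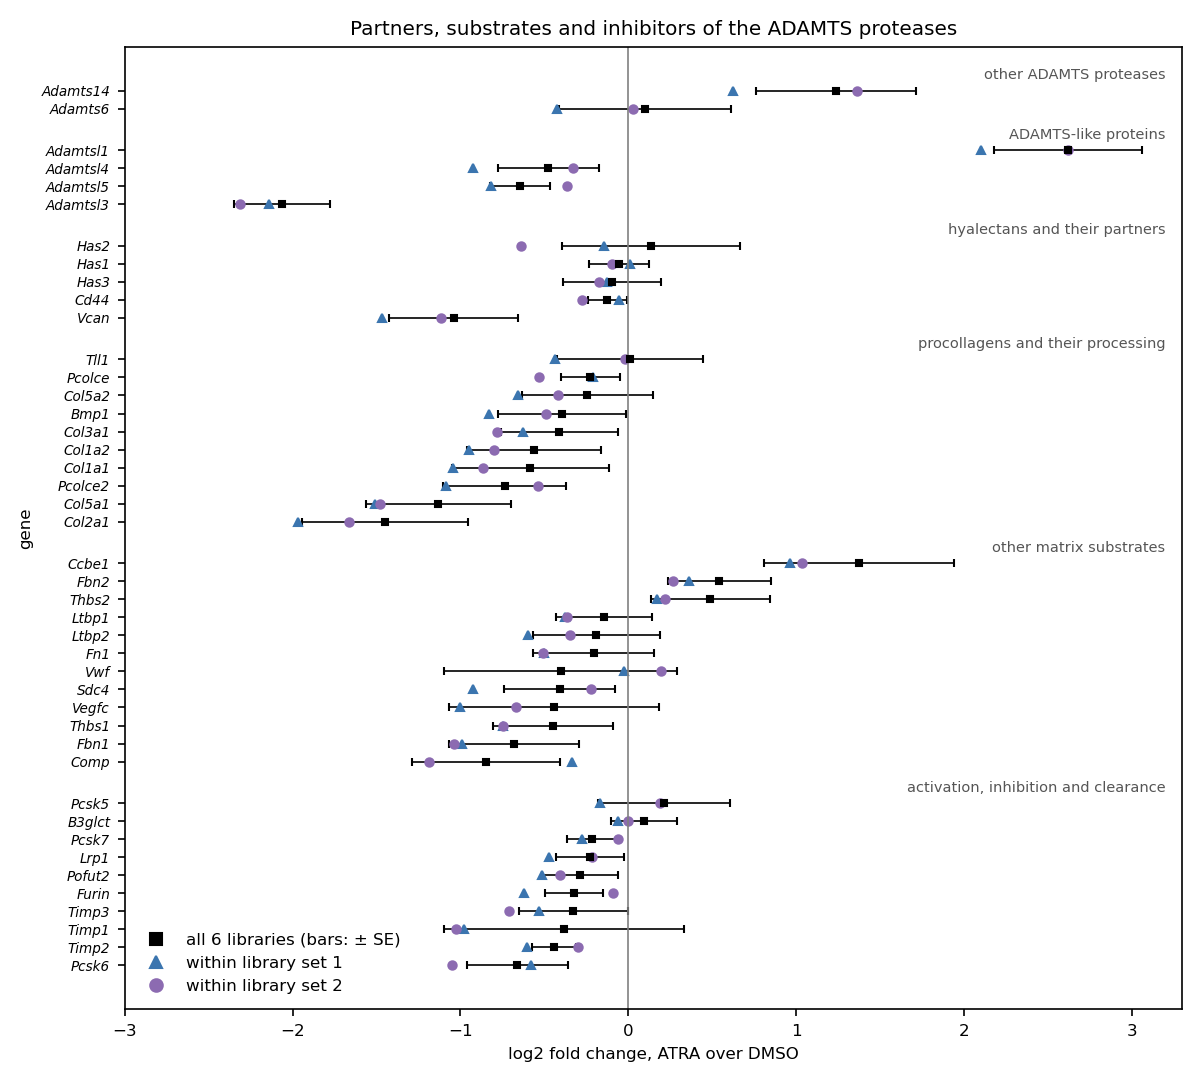
Log2 fold change (ATRA over DMSO) of the tested genes in 6 lists around the ADAMTS proteases, over all 6 libraries (black squares, bars ± SE) and within library set 1 (blue triangles) and set 2 (purple circles). Adamtsl1 at 2.62 and Adamtsl3 at -2.06 stand farthest from 0, and 9 of 10 procollagen genes lie below 0.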

How the data were processed

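There were 3 DMSO and 3 ATRA libraries of RNA from mouse BMSCs, and the authors deposited, for every library, a table with the raw number of reads on each gene (counts), without normalization. The submitters' processing notes name Bowtie2 2.2.3 and the build mm10. The counting program and its strand setting are not given in the sources used here. Members, gene lists and library sets were chosen with earlier results of these data known.

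Counts were analysed in R 4.3.3 with edgeR 4.0.16: TMM scaling, filterByExpr, and the quasi-likelihood F test without covariates, over 13842 genes. A gene was called where its adjusted p (Benjamini-Hochberg) was under 0.05 and its change at least 1.5-fold. The procedure was also run on simulated counts that held no library sets, and that run is not used as support for any call. CPM used TMM-scaled library sizes, and log2 CPM a prior count of 2. Levels per kilobase used the merged exon length of GENCODE M21. Between replicates of a group, the chi-square per degree of freedom was 4.56 for DMSO 1 and DMSO 3, 28.0 for ATRA 1 and ATRA 2, and 76.9 to 83.1 for the other pairs. All exceed counting noise, so no library was merged, but whether the closer pairs share a culture cannot be told, and p-values with 3 per group may then be too small.

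By rule, the genes named are all members, in each list around the proteases the genes called or else the most abundant per length and the 2 with the largest change, the retinoid response genes called, and the 5 most like Adamts15. Outside that rule, and with their values seen, were named Acan, Timp3, Furin, Eng, Thy1 and Nt5e for their role, Fbn1 for its call with the set term, untested ADAMTS genes, and genes whose exons overlap a member. Alternatives were DESeq2 1.42.0, RLE or library size scaling, no filter, the library set as a term, within-set differences, the replicate number as a block and leaving out each library.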

Additional observations from a re-analysis of the deposited data

How the results depend on the processing

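Leaving out each library in turn gave 0 to 6 genes called over all genes, against 6 with all libraries, and 0 to 1 members called. The members' median log2 fold change then ran from -0.17 to 0.80, and reached the upper end without DMSO 2. DESeq2 called 136 genes, dropping the filter gave 20, and the library set as a term gave 213. Genes called in the lists around the proteases went from 0 to 2 with DESeq2, to 1 without the filter (Adamtsl3) and to 8 with the set term. Over 14 settings Adamts15 lay between 4.61 and 5.89, Adamts5 between 0.38 and 1.21 and Adamts9 between 0.55 and 1.06. Adamts2 and Adamts10 were below 0 in all, and Adamts1, Adamts4, Adamts7 and Adamts12 took both signs. These settings mix fitted fold changes with within-set differences of mean log2 CPM, which carry a prior count of 2. The within-set differences gave the low ends of Adamts15 and Adamts5 and both ends of Adamts9. The lowest fitted value of Adamts15 was 5.09. With the replicate block 4 genes were called, Adamts15 among them, and its log2 fold change was 5.51, although same-numbered libraries did not all deviate together (correlations of -0.51, 0.34 and 0.57) and share only a number. Where counts moved, the cause was not tested. Within a library set, 1 of the groups has a single library and no spread. The 11 control counts of Adamts15 limit how closely its ratio is known.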
